A study of Rattus norvegicus with 2 samples.

Results

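Autophagy is the route by which a cell wraps part of its own cytoplasm, a damaged organelle or a protein aggregate in a double membrane, the autophagosome, and delivers it to the lysosome. A kinase complex built around ULK1 starts the process when nutrients or energy run low, a lipid kinase complex marks the site with phosphatidylinositol 3-phosphate, and a ubiquitin-like conjugation system attaches LC3 and GABARAP proteins to the growing membrane, where cargo receptors such as the product of Sqstm1 (p62) dock. In microglia, the resident macrophages of the brain, autophagy is known for the turnover of engulfed and aggregated material and for restraining inflammatory signalling. The genes described here are 39 members of this machinery, from the initiating kinases to the cargo receptors and the transcription factors TFEB and TFE3, which switch on autophagy and lysosome genes. They were listed by name, and their values are those of every array probe set that the platform annotation assigns to exactly 1 of them. Of the 39 genes 35 had such a probe set, with 55 probe sets in all, out of 14217 genes and 20826 probe sets that name 1 gene on the array.

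The arrays measured total RNA of microglial cells from Sprague Dawley rats, grown in DMEM with serum. Resting cells with no exposure were hybridised to 1 array. Cells kept for 3 h under oxygen-glucose deprivation (OGD), in which both oxygen and glucose are withheld to imitate ischaemia, were hybridised to another. The labels name no genetic change or further agent in either group, and give neither the age of the animals nor whether cells were pooled. Neither group has a replicate. The differences given below therefore come with no test and no error between cultures, and they describe these 2 arrays only.

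The deposited values are linear intensities, 1 per probe set and array, and depth in the sense of read counts does not apply to them. The median of each array, 19.6 at rest and 19.7 after OGD, served as the floor below which a value was not read as a measured level. A gene with several probe sets was represented by the brightest, judged on the mean of both arrays, and counted as measured when that probe set was above the floor on at least 1 array. Differences are log2 OGD minus log2 resting. In all 9580 genes were measured. Probe sets of the same gene differed among themselves with a standard deviation (SD) of 0.15 on the log2 scale. This SD, over the 1902 genes that have several above the floor, serves here as a yardstick of measurement noise. The differences of all genes above the floor on both arrays also spread with an SD of 0.15. The yardstick covers probe sets and not cultures. A bulk array cannot tell a change in RNA per cell from a change in the number of cells of a type.

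The labelled cell type was checked against its markers. Of 18 microglial marker genes 16 had a probe set, and 15 of these were above the floor, Aif1 at 48.3 and 47.0 and Itgam at 60.9 and 56.5 on the resting and OGD arrays, while Fcer1g was under the floor. After OGD 13 of the 15 had a lower value than at rest and 2 a higher one, and their median log2 difference was -0.081. Over all measured genes 51.3% were lower and 42.8% higher, with a median of -0.0076. Csf1r, the receptor for the main microglial growth factor, had 21.9 and 19.3, just above the floor at rest and just under it after OGD. Of markers for other cells that a microglial culture can hold, 4 of 8 astrocyte genes were above the floor, 3 of 7 with a probe set for the oligodendrocyte lineage, 2 of 8 for neurons, 4 of 7 for fibroblasts and 2 of 5 for endothelium. By the same floor 9580 of all 14217 genes were measured, so passing it says little about cell type. The highest resting intensity in a list was 604 for microglia, 152 for astrocytes, 118 for fibroblasts and 117 for neurons. It was 89.0 for endothelium and 39.1 for the oligodendrocyte lineage. Aif1 and Itgam thus lay under the brightest marker of every other list except the oligodendrocyte lineage. Trem2 at 604 and Cd68 at 371 lay above the brightest marker of every other list. The remaining measured microglial genes lay under the 152 of the astrocyte list. Brightness also depends on the probes, so these levels do not rank the cell types. The summed intensity of the 4 astrocyte genes was 226 at rest and 225 after OGD, with Aqp4, Slc1a3, Aldh1l1 and S100b under the floor on both arrays. Gfap, the astrocyte filament protein, had 27.4 and 36.9, a log2 difference of 0.43. Slc1a2 had 23.8 and 32.0 (0.43), and Gja1 had 22.1 and 24.3 (0.13). Glul, the glutamine synthetase of astrocytes, had 152 and 132 (-0.21) and makes up most of the sum. Thus 3 of the 4 were higher and 1 lower. The median over the 4 genes was 0.28. The part of either shift in the differences below was not tested.

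Of the 39 autophagy genes 30 were measured, and each exceeded the floor on both arrays. The remaining 9 comprised 5 whose brightest probe set was under the floor on both arrays (Ulk2, Pik3c3, Atg14, Atg10 and Calcoco1) and 4 with no probe set naming them alone (Atg4c, Map1lc3b, Gabarapl2 and Nbr1). For 3 of these 4, Map1lc3b, Gabarapl2 and Nbr1, the annotation names the gene only together with another gene. In all 5 probe sets named 1 of the 39 genes with another gene, and they were not used. No measured autophagy gene was higher or lower by 1.5-fold or more, the threshold named for the series, and 0 of the 40 probe sets above the floor passed it. Over all measured genes 0.0731% were higher and 0.0418% lower by that much, so with 30 genes a count of 0 is near the background. At 1.2-fold, a second threshold used only for description, 4 of 30 were higher (13.3%) and 0 were lower, where 3.56% of all measured genes were higher and 3.97% lower. These 4 were Rb1cc1, Sqstm1, Wdr45 and Wipi1, and with a floor at the 70th percentile 2 of 23 remained, Sqstm1 and Wdr45. The members were chosen with earlier results of these data known, so the 13.3% is not an independent count. Without Sqstm1 and Rb1cc1, 2 of 28 were higher, Wipi1 and Wdr45. The median log2 difference of the 30 genes was 0.028, against -0.0076 over all measured genes. Among them 18 were higher, 10 lower and 2 equal on the OGD array, which puts 60.0% above zero where 42.8% of all measured genes were. The differences spread with an SD of 0.19, against 0.15 over all measured genes.

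**Figure D1:**
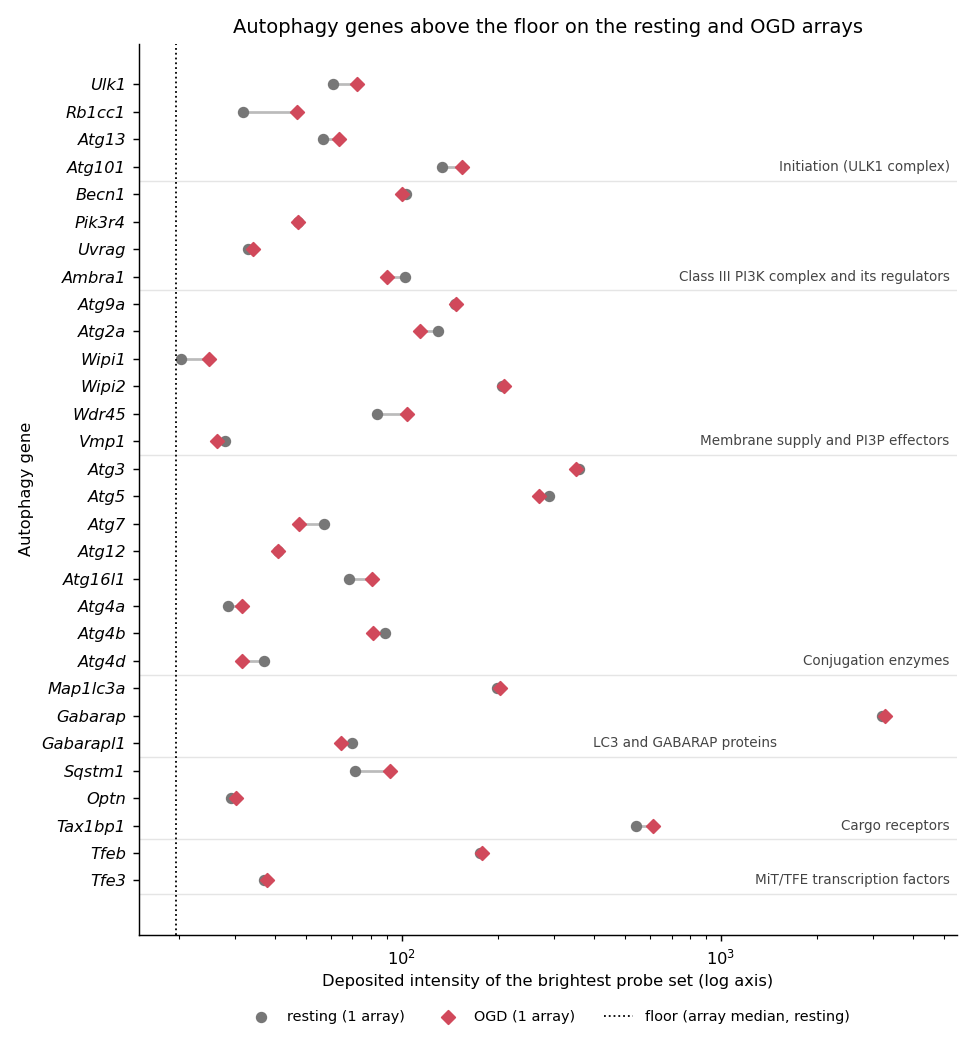
Deposited intensity (log axis) of the brightest probe set of each of the 30 measured autophagy genes on the resting array (grey circles) and the OGD array (red diamonds), ordered by step of the pathway, with the resting floor of 19.6 as a dotted line. Each gene is to be read along its own row, since brightness also depends on the probes; Rb1cc1 has the widest gap, from 31.8 to 46.8, and Wipi1 lies nearest the floor.

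In the complex that starts autophagy all 4 measured genes were higher on the OGD array, with a median difference of 0.23. Over all measured genes 42.8% were higher, and 4 genes are too few to weigh against that share. Rb1cc1 encodes FIP200, the large scaffold that holds the complex together. Its probe set 1379449_at had an intensity of 31.8 at rest and 46.8 after OGD, which is 1.47-fold and a log2 difference of 0.56. The rank of this difference was 9 among the 9580 measured genes, and it lay short of the 1.5-fold threshold at 0.585. The other probe set of Rb1cc1, 1385194_at, had 5.82 and 4.93, under the floor on both arrays, and is given no fold. The higher value of Rb1cc1 therefore rests on 1 dim probe set. With the floor raised to the 70th percentile of each array the resting value fell under it, and the difference became a bound of 0.26.

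The remaining parts of that complex had smaller differences in the same direction. Ulk1, the kinase itself, had 61.0 at rest and 72.5 after OGD, a log2 difference of 0.25. Its second probe set had 25.03 and 28.2 (0.17), so both Ulk1 probe sets were higher on the OGD array. The size of this second difference was shared to 6 decimals by 161 probe sets of the array. Atg101, which stabilises the complex, had 133 and 154, a difference of 0.21. Atg13, the adaptor through which nutrient signals reach the kinase, had 56.8 and 63.5 (0.16). Of all measured genes 4.51% had a difference at least as high as that of Ulk1 and 11.4% at least as high as that of Atg13, so apart from Rb1cc1 these values are common on this array pair. Ulk2, the sister kinase, was under the floor at 19.3 and 17.3.

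**Figure D2:**
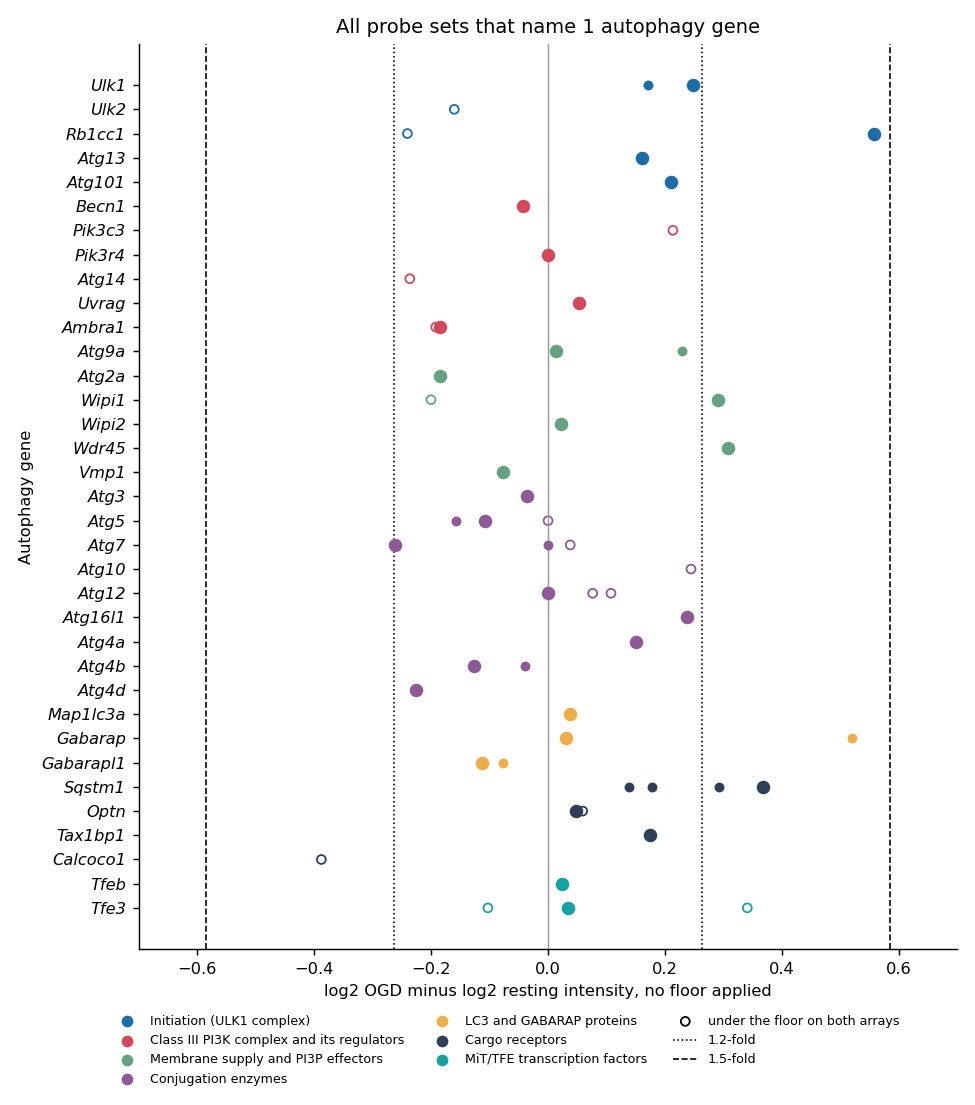
Log2 OGD minus log2 resting intensity, with no floor applied, of all 55 probe sets that name 1 autophagy gene, coloured by step. Filled points exceed the floor on both arrays (large for the brightest probe set of a gene, small for others), open points are under it, and vertical lines mark 1.2-fold and 1.5-fold; the 4 Sqstm1 points all lie to the right of zero, and the 2 Rb1cc1 points lie on opposite sides with the left one under the floor.

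Among cargo receptors, which tether ubiquitin-marked cargo to LC3, all 3 measured genes were higher on the OGD array, with a median of 0.18. With 42.8% of all measured genes higher, a count over 3 genes says little. Sqstm1, whose product is both receptor and substrate of autophagy, was the only one of the 39 genes with 4 probe sets, and all 4 were above the floor. Probe set 1389381_at had 71.4 at rest and 92.2 after OGD, a 1.29-fold difference (0.37 on the log2 scale). Probe set 1371220_at had 25.3 and 31.0 (0.29). Probe set 1371353_at had 27.6 and 31.2 (0.18), and 1371221_at had 71.1 and 78.3 (0.14). All 4 were thus higher on the OGD array, with 0.23 between the largest and the smallest difference. Their mean was 0.24 with an SD of 0.10 over the 4 probe sets, which is 1.18-fold. Among the 88 genes for which 4 or more probe sets exceeded the floor on both arrays, 9 (10.2%) had every probe set higher. A mean as high as this was found in 2, Sqstm1 included. This comparison was chosen after the values of Sqstm1 were seen, so it is a description and no independent support. By its brightest probe set alone, 1.03% of all measured genes had a difference at least as high as that of Sqstm1. At rest that probe set, at 71.4, was barely brighter than 1371221_at, at 71.1, which had the smallest difference, 0.14. The mean over the 4 probe sets lies under 1.2-fold.

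The other receptors showed less. Tax1bp1, a receptor for ubiquitinated aggregates that also dampens inflammatory signalling, had 541 at rest and 611 after OGD, a log2 difference of 0.18. Optn, which takes part in clearing mitochondria and bacteria, had 29.2 and 30.2 (0.049), and its second probe set was under the floor at 8.13 and 8.47. Calcoco1, a receptor for the endoplasmic reticulum and Golgi, was under the floor at 14.1 and 10.8.

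**Figure D3:**
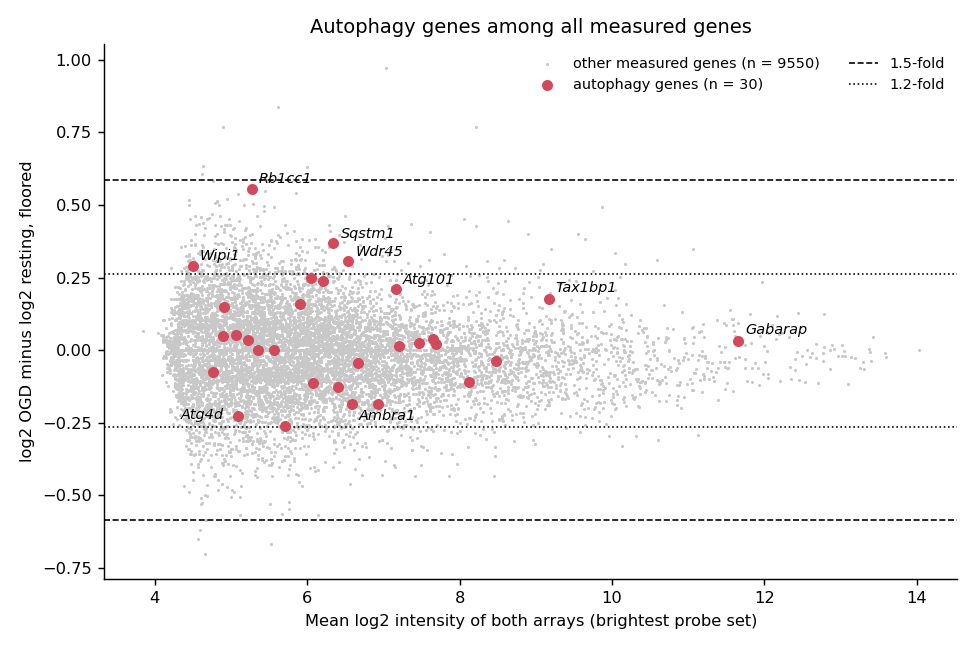
Log2 OGD minus log2 resting (floored) against the mean log2 intensity of both arrays for all 9580 measured genes (grey) and the 30 autophagy genes (red), each by its brightest probe set. Dashed and dotted lines mark 1.5-fold and 1.2-fold; no red point passes 1.5-fold, and 4 (Rb1cc1, Sqstm1, Wdr45 and Wipi1) lie above the upper 1.2-fold line.

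The lipid kinase complex, which makes the phosphatidylinositol 3-phosphate that marks the site of a new autophagosome, showed no common direction, with a median of -0.022 over 4 measured genes. Becn1, the regulatory subunit Beclin 1, had 103 at rest and 100.2 after OGD (-0.043). Pik3r4, the scaffold kinase VPS15, had exactly the same value on both arrays, 47.4. Uvrag, which directs the complex to later, endosomal steps, had 33.0 and 34.2 (0.054). Ambra1, which links Beclin 1 to the initiating kinase, was the lowest of the group, at 103 and 90.2 (-0.19). Its other probe set was under the floor, as were the single probe sets of the catalytic subunit Pik3c3, at 10.7 and 12.4, and of Atg14, at 5.64 and 4.79. The differences of Becn1 and Uvrag are smaller than the SD of 0.15 between probe sets of a gene, and that of Ambra1 is larger.

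Genes for membrane supply and for proteins that read the lipid mark were divided. Wdr45, a propeller protein that binds the lipid mark and is mutated in a human neurodegeneration with iron accumulation, had 83.7 at rest and 103.6 after OGD, a 1.24-fold difference (0.31). Wipi1, of the same family, had 20.4 and 24.9, which is 1.22-fold (0.29), with the resting value just above the floor. Both were measured by 1 probe set, the other Wipi1 probe set being under the floor at 7.98 and 6.94. Wipi2, the family member that recruits the conjugation machinery, had 206 and 209 (0.022), so the 3 related genes did not have a common size of difference. Atg9a, the membrane-spanning scramblase of the vesicles that seed the autophagosome, had 146.5 and 147.8 (0.013) in its brightest probe set and 24.2 and 28.3 (0.23) in the other. Atg2a, the lipid transfer protein that feeds the membrane, had 130.1 and 114 (-0.18). Vmp1, a scramblase of the endoplasmic reticulum, had 27.9 and 26.4 (-0.076). Over these 6 genes the median was 0.018.

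The conjugation system, which attaches LC3 and GABARAP proteins to lipid, had 5 of 8 measured genes lower, 2 higher and 1 equal, with a median of -0.072. Over all measured genes 51.3% were lower, so this count is near the background. Atg7, the activating enzyme at the head of the system, had 57.2 at rest and 47.7 after OGD (-0.26), just short of 1.2-fold. Another Atg7 probe set had 48.7 on both arrays, so the lower value was not seen in both. Atg5, which is joined to Atg12 in the ligase complex, had 290.2 and 269 (-0.11) and, in a second probe set, 72.7 and 65.2 (-0.16). Atg5 was thus lower in both probe sets above the floor. Atg3, the conjugating enzyme for LC3, had 360.0 and 351 (-0.036). Atg12 had 41.0 on both arrays. Atg16l1, which places the ligase on the membrane, was higher, with 68.3 and 80.5 (0.24). The conjugating enzyme for Atg12, Atg10, was under the floor at 14.5 and 17.1.

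The Atg4 proteases, which trim LC3 proteins before use and release them from membrane afterwards, had differences of either sign. Atg4a had 28.5 at rest and 31.7 after OGD (0.15). Atg4b had 88.6 and 81.1 (-0.13), with 32.6 and 31.7 (-0.039) in a second probe set. Atg4d had 36.9 and 31.6 (-0.23). Atg4a was higher, and Atg4b and Atg4d were lower, each by under 1.2-fold.

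The LC3 and GABARAP proteins themselves, which coat the autophagosome, showed small differences in their brightest probe sets, with a median of 0.031. Map1lc3a had 198 at rest and 204 after OGD (0.038). Gabarap had 3196 and 3266 (0.031), a difference that became -0.018 with quantile normalization and 0.065 with a loess trend removed. The second, dim probe set of Gabarap had 31.2 and 44.7, which is 1.43-fold (0.52). The 2 Gabarap probe sets thus differed by 0.49, the widest gap among the 8 autophagy genes with several probe sets that exceed the floor. Both were higher as deposited, and they disagree in size. Gabarapl1 had 69.8 and 64.6 (-0.11) and, in its other probe set, 38.7 and 36.7 (-0.077). Within these 8 genes (Ulk1, Atg9a, Atg5, Atg7, Atg4b, Gabarap, Gabarapl1 and Sqstm1) the pooled SD between probe sets was 0.15, the same to 2 decimals as over all genes.

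The transcription factors of the pathway were nearly level. Tfeb had 175 at rest and 178 after OGD (0.024). Tfe3 had 37.0 and 37.8 (0.034) in its brightest probe set, with the other 2 under the floor. TFEB is controlled mainly by its phosphorylation and entry into the nucleus, neither of which an expression array measures.

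The promoter letters of 2 members are shown, Sqstm1 for its values above and Atg3 because its window holds the letters that TFEB and TFE3 are known to read. The windows are the 250 bases before the annotated start, from RefSeq on GRCr8, and 35 of the 39 genes had 1 or more, Rb1cc1 not among them. The Sqstm1 window is chr10:35037751-35038000 on the minus strand, and capitals mark the letters TATAAA, those of a TATA box, with no CACGTG in the window. Atg3, which had a difference of -0.036, has the window chr11:69159281-69159530 on the minus strand, and capitals mark CACGTG, the core of the site read by TFEB and TFE3.
Sqstm1: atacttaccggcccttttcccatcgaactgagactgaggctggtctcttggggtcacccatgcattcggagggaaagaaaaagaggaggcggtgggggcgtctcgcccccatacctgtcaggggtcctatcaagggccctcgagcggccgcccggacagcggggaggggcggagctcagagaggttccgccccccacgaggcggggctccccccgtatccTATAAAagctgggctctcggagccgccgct
Atg3: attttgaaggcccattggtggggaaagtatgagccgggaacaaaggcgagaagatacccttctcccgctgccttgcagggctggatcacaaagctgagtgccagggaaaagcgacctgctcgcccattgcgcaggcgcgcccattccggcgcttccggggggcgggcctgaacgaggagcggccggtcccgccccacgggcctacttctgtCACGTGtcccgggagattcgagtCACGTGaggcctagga
Both strands were searched. The letters CACGTG were found in 2 of 35 autophagy genes, Atg3 and Atg5 (5.71%), against 6.75% of 18999 protein-coding genes with a window. The longer GTCACGTG, which contains them, was in 1 of 35, Atg3 (2.86%), against 2.31%. TATAAA was in 3 of 35, Atg13, Gabarapl1 and Sqstm1 (8.57%), against 13.2%. TGACNNNGC, the core read by the antioxidant factor NRF2, was in 5 of 35 (14.3%), Ulk2, Vmp1, Atg10, Atg4d and Gabarap, against 11.4%. None of these shares is a test, a match is only a match of letters, and its absence says only that the letters are not in this window.

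Neighbouring parts of the pathway were taken from 5 further lists with 121 genes, of which 94 were measured. None was past 1.5-fold in its brightest probe set, 3 were higher (3.19%) and 4 lower (4.26%) by 1.2-fold or more, close to the 3.56% and 3.97% of all measured genes, and the median was 0. The upstream energy and nutrient kinases, AMPK and mTORC1 with their regulators, had a median of -0.010 over 28 measured genes. Fnip1, a folliculin partner that connects both kinases, had 169 at rest and 225 after OGD (0.41), although its other probe set was equal on both arrays. Prkaa1, the catalytic subunit of AMPK, had 29.7 and 35.4 (0.25). Both are upstream of ULK1. Depdc5, of the complex that turns mTORC1 off when amino acids are scarce, had 62.7 and 47.7 (-0.39). Camkk2, a kinase that activates AMPK, had 48.5 and 37.3 (-0.38), and -0.61 in its other probe set above the floor, which is past 1.5-fold. The list thus held values on both sides, 12 higher and 14 lower.

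**Figure D4:**
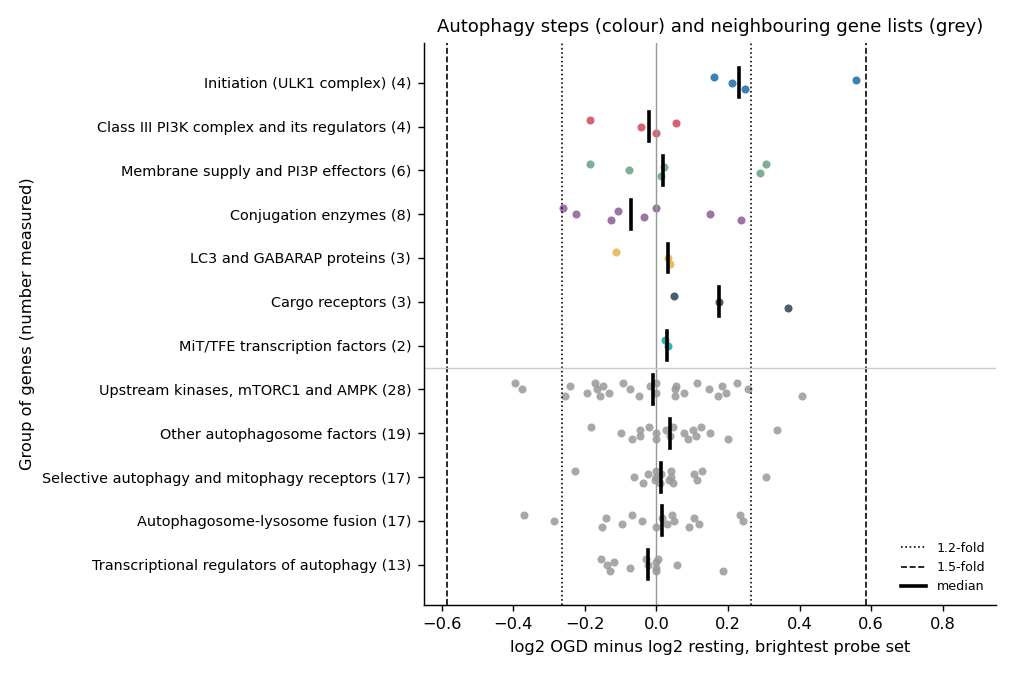
Log2 OGD minus log2 resting of the brightest probe set for the measured genes of the 7 steps (coloured) and of the 5 neighbouring lists (grey), with the number measured in brackets, medians as black bars, and 1.2-fold and 1.5-fold as dotted and dashed lines. The 4 genes of the initiating complex all lie at 0.16 or above, whereas the neighbouring lists are spread around zero with medians from -0.023 to 0.039.

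Other factors of autophagosome formation had a median of 0.039 over 19 measured genes, with Pik3c2a, a class II lipid kinase, at 67.2 at rest and 84.8 after OGD (0.34), and Tmem41b, a scramblase related to Vmp1, at 37.5 and 43.1 (0.20). Sh3glb1, which binds Beclin 1 through UVRAG, had 59.2 and 52.2 (-0.18), and the ubiquitin ligase gene Traf6 had 44.7 and 41.7 (-0.10). Receptors for mitochondria, endoplasmic reticulum, glycogen and other cargo had a median of 0.014 over 17. Stbd1, a glycogen-binding receptor, had 45.3 and 56.0 (0.31), and Tex264, a receptor for the endoplasmic reticulum, had 175 and 192 (0.13). The mitochondrial proteins Nipsnap2 and Phb2 had differences of -0.23 and -0.063. Of these 17 genes 1 was past 1.2-fold, Stbd1. This is 5.88% higher, near the 3.56% of all measured genes.

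Genes for the fusion of autophagosomes with lysosomes had a median of 0.014 over 17 measured genes. Plekhm1, an adaptor between both membranes, had 30.2 at rest and 35.7 after OGD (0.24), and the fusion protein gene Stx17 had 20.8 and 24.5 (0.23), close to the floor. Borcs5, of the complex that moves lysosomes along microtubules, had 64.4 and 49.8 (-0.37), and Vps39, a subunit of the HOPS tether, had 48.1 and 39.4 (-0.29). Borcs5 and Vps39 were the only genes of this list past 1.2-fold, and both were lower. That is 11.8% of the 17, against 3.97% of all measured genes, and a count over 17 genes says little. Regulators of transcription had a median of -0.023 over 13, with 3 higher (23.1%) and 7 lower (53.8%). Over all measured genes 42.8% were higher and 51.3% lower. Ppara had 0.19 and Crebbp 0.057, while the FOXO factor genes Foxo1 and Foxo3 had -0.14 and -0.13. Other probe sets of Crebbp and Foxo1 lay on both sides of zero, from -0.20 to 0.066 and from -0.049 to 0.094.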

How the data were processed

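Per the labels' protocols, RNA was extracted with TRIzol, copied from an oligo(dT) primer carrying a T7 promoter and transcribed with biotinylated nucleotides. The authors deposited 1 linear intensity per probe set and array, with background correction, summarisation and scaling not given in the sources used here. A difference shared by most genes could be lost in such values. The 57 array controls were left out, and only probe sets naming 1 gene were used. Symbols were updated by Entrez ID to a RefSeq gene table (GRCr8), in which all 55 autophagy probe sets matched. The files name no build, so the only coordinates given are those of the RefSeq promoter windows.

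Values under the floor were set to it, and fold changes were counted at fixed thresholds without tests, since each group has 1 array. The number of arrays limits the precision. Named genes were all 39 members and, from each neighbouring list, the 2 highest and 2 lowest above the floor on both arrays. Members and lists were chosen with earlier results of these data known. The count of genes with 4 or more probe sets, the motifs and the promoters shown were chosen after values were seen. Calculations used Python 3.11.15, pandas 2.3.3 and statsmodels 0.14.6 and were tested on simulated data. The simulation checked the recovery of 2-fold changes in bright genes, and not of small differences in dim genes. Alternatives covered floors, scaling, choice of probe set, pseudocount and threshold.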

Additional observations from a re-analysis of the deposited data

How the results depend on the processing

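The count of autophagy genes past 1.5-fold was 0 in both directions under every alternative that kept that threshold, and at 2-fold. It was 4 higher and 0 lower at 1.2-fold. At 1.2-fold 1 gene was lower with the floor at the 30th percentile or without a floor, Calcoco1, and 1 with each array centred on its median, Atg7. With the mean over probe sets, Gabarap took the place of Sqstm1 among the 4 higher genes. The background moved more, with 35 higher and 23 lower genes past 1.5-fold without a floor. The median of the autophagy genes stayed above zero, from 0.022 to 0.070 over 12 alternatives, and was 0.023 without Sqstm1 and Rb1cc1. The difference of Sqstm1 was 0.14 in its next brightest probe set, and that of Rb1cc1 was a bound of 0.26 with the floor at the 70th percentile. Other alternatives moved either by less than the SD between probe sets of a gene. Among members, Gabarap, Pik3r4 and Atg12 changed sign or left zero with scaling. No second Rb1cc1 probe set was above the floor, so the next brightest could not be used.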

Other observations

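The deposited values carry a fine structure that bears on how small differences are read. Exactly equal values on both arrays were found for 4 of the 55 autophagy probe sets, in Pik3r4, Atg5, Atg7 and Atg12 (7.27%), against 8.70% of all probe sets. Many other differences recurred to 6 decimals. Over all probe sets 29.9% had an absolute difference found in 50 or more probe sets, as did 12 of the 55. The size of the difference of Atg13, 0.16, was found in 187 probe sets, that of Vmp1, -0.076, in 228 and that of Atg4a, 0.15, in 165. That of the second Ulk1 probe set, 0.17, was found in 161. Those of Ambra1, -0.19, and of the second Atg9a probe set, 0.23, were found in 125 each. No probe set of Rb1cc1 or Sqstm1 was among the 12, but most of them also shared the size of their difference with others. For Sqstm1 the size in 1371353_at was found in 36 probe sets, and those in 1371220_at and 1371221_at in 2 each. Only that of 1389381_at was found once. For Rb1cc1 the size in 1379449_at was found in 4 probe sets and that in 1385194_at in 33.

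In addition, 998 probe sets (3.21%) had, on both arrays, values that were multiples of 0.5 plus an offset of 0.165, within 0.001 of a step. Of the autophagy probe sets 4 did, those of Atg5 at 290.2 and 269, Atg7 at 57.2 and 47.7, Gabarap at 31.2 and 44.7, and Optn at 29.2 and 30.2. The Atg7 and Gabarap probe sets among these are ones that disagreed with another probe set of the gene. Of the genes named from the neighbouring lists, Depdc5, Sh3glb1 and Traf6 also had values of this form on both arrays. On the array as a whole the differences of such probe sets spread no wider, with an SD of 0.15 over 996 above the floor on both arrays and of 0.15 over 14038 others, and 498 of the 996 were lower on the OGD array, against 49.1% of the others. What produced these values is not given in the sources used here.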
